A study of Mus musculus with 9 samples.

Results

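The mature miRNAs made from the repeat-rich intron of Sfmbt2 on mouse chromosome 2 were followed in exosomes of renal tubular cells. All miRNAs of the processed table that were listed on chromosome 2 within or near Sfmbt2 were taken, 70 of the 1978 listed, and each carried one of the family names miR-297, miR-466, miR-467 or miR-669. The source was TCMK-1, an established mouse kidney tubular epithelial line of C3H genotype. LV-NC cells carried an empty lentiviral vector and stayed in normal culture. H/R-LV-NC cells carried the same empty vector and went through hypoxia and reoxygenation (H/R), with 24 h at 1% O2 followed by 12 h at 21% O2 in exosome-free medium. H/R-LV-BMAL1 cells carried a vector for stable overexpression of BMAL1, a transcription factor of the circadian clock, and went through the same H/R. Both vectors also encoded EGFP and a puromycin resistance gene from the EF1 promoter, and the insert site behind the CMV promoter carried a Flag tag. The multiplicity of infection was 100. The last 2 groups are called the H/R group and the BMAL1 group below. Exosomes were collected from the medium by repeated ultracentrifugation, and the small RNA of 3 libraries in each group was sequenced. The design had no H/R-free group with BMAL1, so a BMAL1 effect outside H/R was not measured, the overexpression itself cannot be read from miRNA libraries, and the labels do not say whether separate cultures were used for the libraries.

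Sfmbt2 encodes a Polycomb-group protein. In the mouse the gene is imprinted, is expressed from the paternal allele in extraembryonic tissue, and is best known from the placenta. One of its introns holds a rodent-specific cluster of miRNA hairpins that multiplied from short tandem repeats, and this cluster is transcribed mainly in trophoblast and in early embryonic cells. A miRNA hairpin is cut into a duplex whose 5p and 3p arms can each be loaded into Argonaute, and the seed, the bases near the 5′ end, selects the target mRNAs. Hairpins that arose by duplication often share seeds, but names within a family can also differ in seed, as in the relatives printed below.

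All 70 members were listed on the plus strand of chromosome 2, the first starting at 10466677 and the last ending at 10518240, a span of 51.56 kb. The sources used here do not give the build of these positions, but each of the 70 lay inside an annotated miRNA gene of the same strand in GENCODE M21 (GRCm38). In that annotation Sfmbt2 runs from 10370510 to 10595253. All members lay in 1 intron of it, from 10461473 to 10523944, which is intron 10 in 1 of the gene's 23-exon transcripts and intron 11 in the other. None overlapped an exon. The members belonged to 39 miRNA genes.

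The listed members fell into 2 stretches. Levels are given as CPM, the UMIs of a miRNA scaled to the miRNA UMIs of its library and then by edgeR's TMM factors, unless they are called CPM of the total, which leaves out the TMM step. There were 39 in the first 22.51 kb, 7 of which were abundant enough to be tested, and 31 beyond 39.05 kb, of which 14 were. The second stretch gave 4227 of the 6806 UMIs of the cluster, which is 62.1%. UMIs are the unique molecular identifiers of the library kit, with which PCR copies of 1 molecule are counted once. The 16.54 kb between the stretches held no listed member, yet RefSeq (GRCm38.p6) places 16 miRNA genes there, 14 of them copies of Mir669a, Mir467a or Mir466b. RefSeq lists 72 miRNA genes inside Sfmbt2, including 12 copies of Mir669a, 10 of Mir467a and 8 of Mir466b. Successive copies of Mir467a lay 2.41 to 4.88 kb apart, with a median step of 2.46 kb. The processed table gives every mature miRNA 1 position. A value for miR-669a-3p, miR-467a-5p or miR-466b-3p may therefore stand for several copies that make the same molecule, which was not tested.

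**Figure D1:**
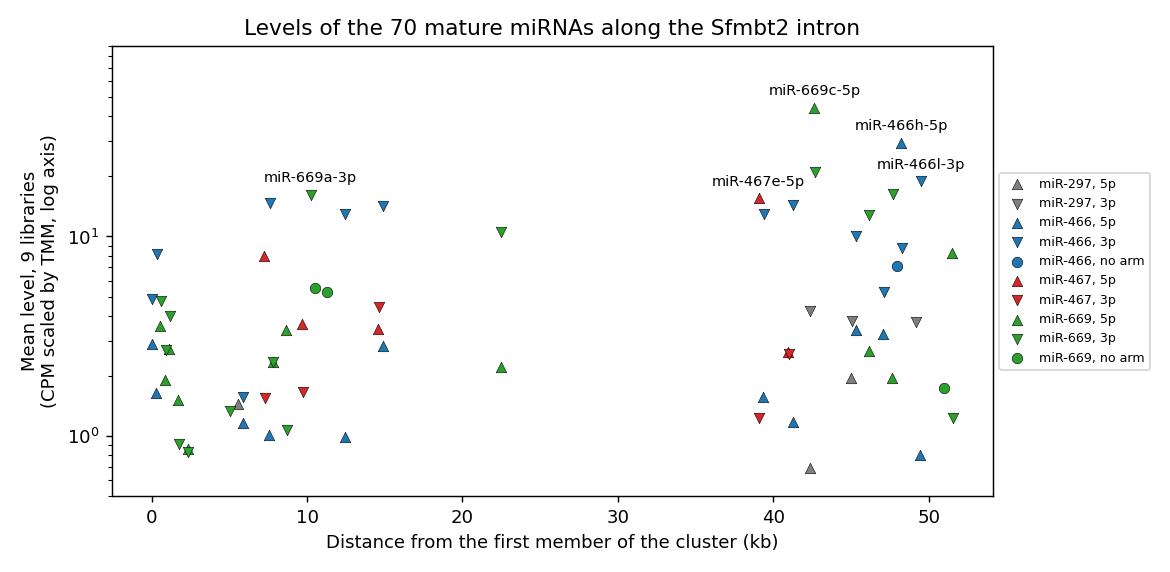
Mean level of each of the 70 members over the 9 libraries (CPM scaled by TMM, log axis) against the distance of its listed start from the first member in kb; colours give the family and symbols the arm. Members lie in the first 22.51 kb and beyond 39.05 kb, and miR-669c-5p, with a mean of 44.0 CPM, is the highest.

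The sequences of 0 of the 70 members and of 8 of the 10 miRNAs of the same families listed at other positions were in the RefSeq table used here (GRCm38.p6). These 8 relatives are printed as examples of the repeat letters found under these family names. They are written 5′ to 3′ with the seed, bases 2 to 8, in capitals.
miR-466i-3p (chromosome 13): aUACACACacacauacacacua
miR-466q (chromosome 3): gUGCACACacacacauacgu
miR-467f (chromosome 11): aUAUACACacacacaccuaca
miR-467g (chromosome 5): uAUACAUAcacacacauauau
miR-466j (chromosome 10): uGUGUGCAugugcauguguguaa
miR-466k (chromosome 3): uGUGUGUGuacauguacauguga
miR-467h (chromosome 9): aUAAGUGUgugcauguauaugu
miR-669n (chromosome 3): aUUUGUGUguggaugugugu
The first 4 are rich in C and A, at 86.4% in miR-466i-3p, and the last 4 are rich in G and U, at 73.9% in miR-466j. Names of miR-466 and of miR-467 occur in both sets, and no 2 of the 8 share a seed. ACACAC, searched on the mature strand, occurred in 4 of the 8 and in 0.655% of the 1679 listed miRNAs with a sequence. UGUGUG occurred in the other 4, against 1.67% of the 1679. AUACAC occurred in 3 of the 8, against 0.834%, and UAUGUA in 0 of the 8, against 0.536%. These letters are a description of the relatives and were not read from the members.

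The 9 libraries held 807158 to 4057046 UMIs in miRNAs, and the BMAL1 libraries were the deepest, from 3357851 UMIs. The TMM factors of edgeR, which centre the libraries on the bulk of the miRNAs, were 1.03 to 1.07 in LV-NC, 1.05 to 1.72 in the H/R group and 0.558 to 0.940 in the BMAL1 group. All 11 miRNAs fixed as tubular markers were listed, with summed levels of 8695 to 12582 CPM of the total in LV-NC, 10134 to 10618 in the H/R group and 14593 to 16397 in the BMAL1 group. Most of this came from the miR-30 family, while the epithelial miRNAs miR-200a-3p, miR-200b-3p and miR-141-3p had medians of 5.10, 4.93 and 3.60 CPM of the total. The 6 blood cell miRNAs summed to 162 to 193.8 CPM of the total in LV-NC, 208 to 276 in the H/R group and 128 to 143 in the BMAL1 group. The tubular sum was highest and the blood cell sum lowest in the BMAL1 libraries, and their part in the results below was not tested.

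The cluster was a small part of the exosomal miRNA. Its 70 members together held 0.0276% to 0.0683% of the UMIs of a library. In LV-NC they summed to 478, 472 and 407 UMIs, which were 488 (446 to 533), 483 (441 to 528) and 355 (322 to 391) CPM of the library total, where the ranges are Wilson 95% intervals and cover counting error only. In the H/R group the sums were 545, 551 and 899 UMIs, or 406 (373 to 441), 683 (628 to 742) and 621 (582 to 663) CPM. In the BMAL1 group they were 1161, 1172 and 1121 UMIs, or 346 (326 to 366), 325 (307 to 344) and 276 (261 to 293) CPM. Every BMAL1 library was below every other library on this scale, although the intervals of libraries BMAL1 1 and 2 overlapped that of LV-NC 3, and the H/R libraries overlapped those of LV-NC.

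The order of the groups depended on the scaling. Relative to total UMIs the cluster averaged 442 ± 75.4 CPM in LV-NC, 570 ± 145 in the H/R group and 316 ± 35.6 in the BMAL1 group (SD, n = 3 each). After scaling by TMM the means were 424 ± 79.9, 427 ± 59.9 and 435 ± 63.7 CPM, and all 3 groups overlapped. The miRNAs of low level, with means under 100 CPM, accounted for 3.38% to 3.79% of a library in LV-NC, 3.48% to 6.63% in the H/R group and 1.99% to 4.304% in the BMAL1 group, with all groups overlapping. Of every 1000 UMIs in low miRNAs, the cluster included, the members held 12.4 ± 2.67 in LV-NC, 11.7 ± 1.36 in the H/R group and 11.7 ± 3.18 in the BMAL1 group. A single member weighed on the sum of the BMAL1 group, which was 260 CPM of the total without miR-669c-5p. In RNA pooled from many exosomes, fewer exosomes that carry a miRNA and fewer copies in each cannot be told apart.

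**Figure D2:**
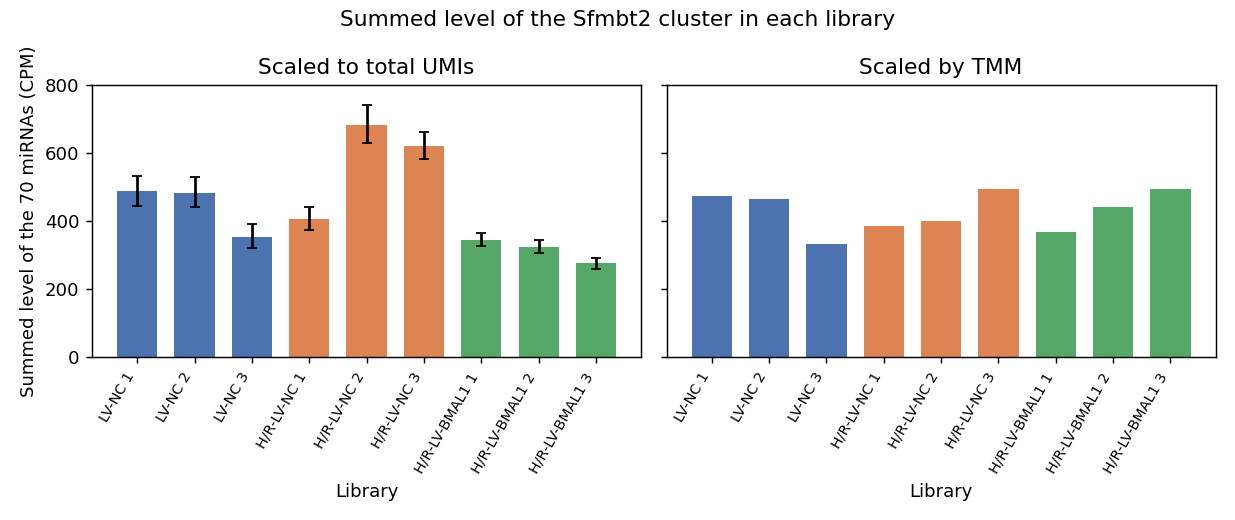
Summed level of the 70 members in each of the 9 libraries in CPM, scaled to total UMIs (left, error bars are Wilson 95% intervals) and by TMM (right); bars start at 0 and colours give the group. The BMAL1 bars, 276 to 346 CPM on the left, are the lowest there and overlap the other groups on the right.

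Most members were close to the limit of detection. A member had a median of 3 to 4 UMIs in the LV-NC libraries, 4.5 to 5 in the H/R group and 6 to 8 in the BMAL1 group, against 16 to 20, 23 to 32 and 33 to 49 over all listed miRNAs. At least 1 UMI was found for 60, 64 and 60 members in LV-NC, for 66, 69 and 68 in the H/R group and for 69, 70 and 67 in the BMAL1 group. These counts come from unequal depths. Thinned to the depth of the shallowest library, the expected numbers were 55.2 to 61.7 in LV-NC, 61.5 to 69 in the H/R group and 50.4 to 55.7 in the BMAL1 group. The thinning used total UMIs, the scale on which the summed level of the BMAL1 group was lowest, and was not repeated with TMM. The lower numbers of the BMAL1 group therefore depend on the scaling. There were 49 members with a UMI in all 9 libraries and 21 that were listed at 0 in at least 1.

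miR-466l-5p and miR-669l-5p were listed at 0 in 4 libraries each, and miR-297c-5p and miR-669l-3p in 3 each. miR-466l-5p was counted at 0, 0 and 0 UMIs in LV-NC, 0, 3 and 2 in the H/R group and 4, 6 and 1 in the BMAL1 group. miR-669l-5p and miR-297c-5p reached at most 6 and 4 UMIs in a library. A count of 0 allows up to 3 UMIs, which is 2.61 to 3.07 CPM of the total in the LV-NC libraries and 0.739 to 0.893 CPM in those of the BMAL1 group, so miR-466l-5p was not detectable in LV-NC at this depth.

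The low-count filter kept 21 of the 70 members, against 1682 of all 1978 miRNAs. The 21 had mean levels of 5.27 to 44.0 CPM and held 73.2% of the UMIs of the cluster. The 49 that were not tested had means of 0.692 to 5.53 CPM, with a median of 2.22. miR-466n-3p and miR-466h-3p passed the filter only with their LV-NC libraries, and miR-669h-5p only with its H/R libraries. Their lower levels against those groups, given below, are therefore not independent of the filter. The 10 most abundant members held 49.5% of the UMIs and the first 2, miR-669c-5p and miR-466h-5p, held 19.4%.

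The families differed in output. The 25 members of miR-466 gave 2839 UMIs, 41.7% of the cluster, and 12 of them were tested. The 29 of miR-669 gave 3046 UMIs, 44.8%, with 7 tested. The 10 of miR-467 gave 689 UMIs, 10.1%, with 2 tested, miR-467e-5p and miR-467c-5p. The 6 of miR-297 gave 232 UMIs, 3.41%, and none passed the filter. These UMIs are pooled over libraries of unequal depth, and the order of miR-466 and miR-669 depended on the group. As CPM of the total, miR-466 averaged 191.7 in LV-NC and 268.8 in the H/R group. There miR-669 averaged 179.4 and 221.9, and the ranges of the families overlapped. In the BMAL1 group miR-669 was the higher, at 159.2 against 117.4.

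The 2 arms were counted unevenly. Of 34 members named as 3p, 15 were tested, and of 32 named as 5p, 5 were. The 3p members held 3793 UMIs (55.7%), the 5p members 2709 (39.8%) and the 4 names without an arm 304 (4.47%). Both arms were listed for 32 names, and the 3p arm had more UMIs over the 9 libraries in 21 of them and the 5p arm in 11. The 3p arm was ahead in every library for 13 names, which included miR-466a, miR-466b, miR-466c, miR-466d, miR-466e, miR-466f, miR-466l and miR-466p.

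The most lopsided pair was miR-466l, with 16 UMIs of the 5p arm and 282 of the 3p arm. miR-466b gave 17 and 220, miR-466a 19 and 218, and miR-466c 49 and 213. miR-669o gave 28 and 282, miR-669a 39 and 277, and miR-466d 47 and 151. For miR-466n the counts were 42 and 69, and the 3p arm led in 7 of 9 libraries. In all of these pairs the 3p arm was the more abundant. The 2 arms of miR-669a, and those of miR-297a, are listed in different copies of the hairpin gene. miR-669a-3-3p, listed in the same gene as miR-669a-5p, had 37 UMIs against its 39.

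The 5p arm was ahead in every library for 3 names, miR-467e (228 UMIs against 19), miR-669h (124 against 21) and miR-467c (137 against 25). The 2 most abundant members were also 5p arms. miR-669c gave 826 UMIs of 5p and 330 of 3p, with the 5p arm ahead in 8 libraries, and miR-466h gave 491 and 127, ahead in 7. miR-467d, miR-669l and miR-669e had nearly equal arms, with 45 and 35, 15 and 14, and 36 and 35 UMIs.

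**Figure D3:**
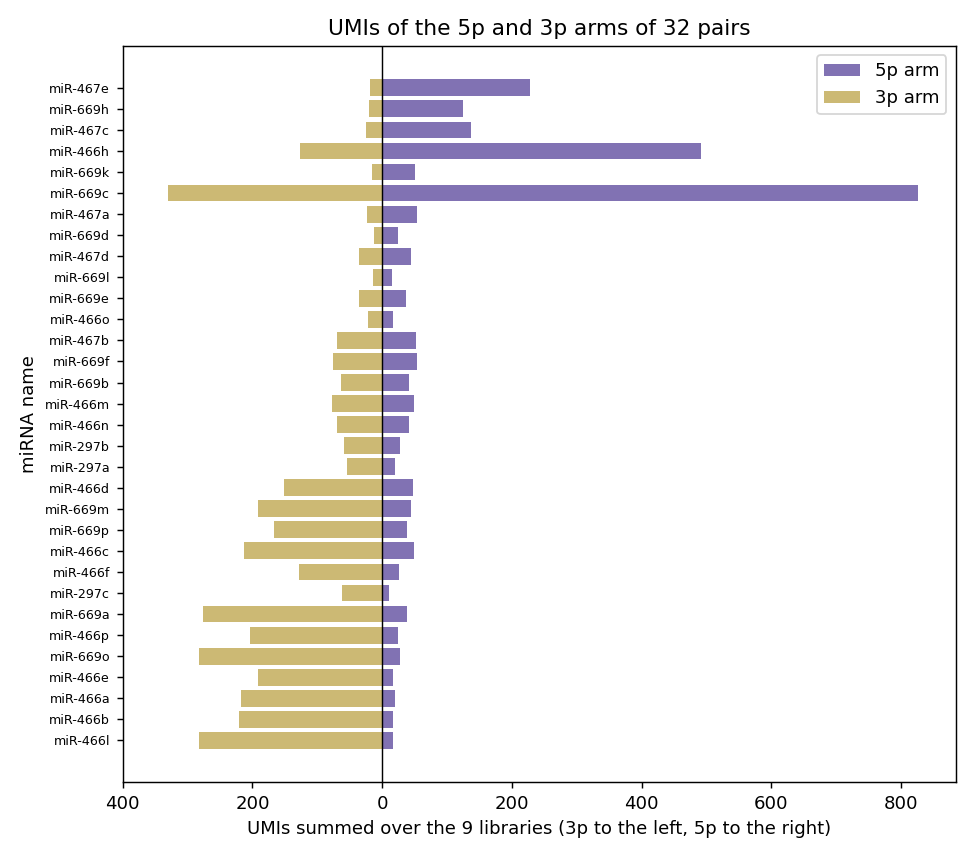
UMIs summed over the 9 libraries for the 5p arm (right of 0) and the 3p arm (left of 0) of the 32 names with both arms listed, sorted by the share of the 5p arm. miR-467e at the top has 228 UMIs of 5p and 19 of 3p, and miR-466l at the bottom has 16 and 282.

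miR-669c-5p was the most abundant member. It was counted at 37, 44 and 27 UMIs in LV-NC, 42, 45 and 47 in the H/R group and 365, 102 and 117 in the BMAL1 group. Its levels were 36.7, 43.5 and 22.01 CPM in LV-NC, 29.8, 32.6 and 25.9 in the H/R group and 116, 38.4 and 51.7 in the BMAL1 group. Library BMAL1 1 was far above the other 8 libraries, and all 3 BMAL1 libraries were above those of the H/R group, while they overlapped LV-NC. As CPM of the total, libraries BMAL1 2 and 3 had 28.3 and 28.8, below the 31.3, 55.8 and 32.5 of the H/R libraries. Its other arm, miR-669c-3p, had 12.0 to 30.5 CPM with the groups overlapping, and 15.9 CPM in library BMAL1 1.

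miR-466h-5p was the second most abundant, and 1 library weighed most on its mean. It was counted at 24, 8 and 15 UMIs in LV-NC, 26, 25 and 219 in the H/R group and 66, 84 and 24 in the BMAL1 group. Library H/R 3 reached 121 CPM, while the other 8 libraries were between 7.90 and 31.6. Library H/R 3 held 45.7% of its level summed over the libraries, and its other arm, miR-466h-3p, had 5.51 CPM there, below the 9.88 to 13.9 CPM of LV-NC.

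miR-466l-3p was higher in the H/R group than in both other groups, with no overlap. Its levels were 16.9, 15.8 and 13.9 CPM in LV-NC, 35.4, 27.5 and 18.7 in the H/R group and 10.5, 16.6 and 14.6 in the BMAL1 group. The underlying counts were 17, 16 and 17 UMIs, then 50, 38 and 34, then 33, 44 and 33. Library H/R 1 was the highest of the 9 and library BMAL1 1 the lowest.

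miR-467c-5p showed the opposite order. It was counted at 9, 8 and 10 UMIs in LV-NC, 10, 7 and 4 in the H/R group and 38, 30 and 21 in the BMAL1 group. Its levels were 8.92, 7.90 and 8.15 CPM in LV-NC, 7.09, 5.07 and 2.21 in the H/R group and 12.1, 11.3 and 9.28 in the BMAL1 group. The 3 groups did not overlap on this scale, with the H/R group lowest and the BMAL1 group highest. As CPM of the total they were 8.18 to 9.18, 2.76 to 8.67 and 5.18 to 11.3, and all groups overlapped.

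Other abundant members also varied between libraries. miR-467e-5p had 13.8 to 24.5 CPM in LV-NC, 13.2 to 17.7 in the H/R group and 8.88 to 17.2 in the BMAL1 group. miR-669o-3p had 10.9 to 15.5, 10.1 to 15.4 and 14.3 to 35.3 CPM in the same order, and miR-669a-3p had 10.9 to 17.1, 9.41 to 18.2 and 13.3 to 31.8. For these 3 members all groups overlapped.

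**Figure D4:**
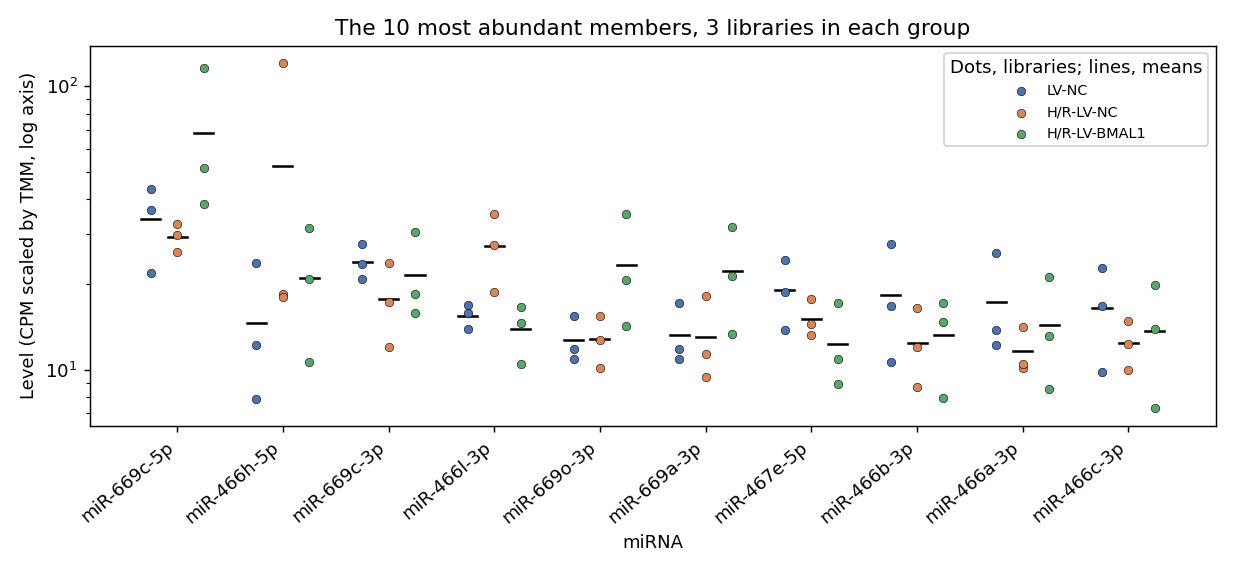
Level of the 10 most abundant members in each library (dots, CPM scaled by TMM, log axis) with the mean of each group (lines, n = 3). Library H/R 3 stands out for miR-466h-5p at 121 CPM and library BMAL1 1 for miR-669c-5p at 116 CPM.

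Several members of a family had similar totals. These sets were chosen after their values were seen. miR-669a-3p and miR-669o-3p, 277 and 282 UMIs in all, differed by at most 8 UMIs in a library and had equal counts in LV-NC 1 (11 each) and LV-NC 2 (12 each). miR-467a-5p and miR-467b-5p, with 54 and 52 UMIs, differed by at most 2. The 3p arms of miR-466a, miR-466b, miR-466c, miR-466e and miR-466p had totals of up to 220 UMIs and lay within 12 UMIs of each other in each library, for example from 9 to 21 in library H/R 1, and those of miR-297a, miR-297b and miR-297c had totals of 55 to 62 and lay within 7, from 2 to 9 in library BMAL1 3. The sources used here do not say how reads that match several miRNAs were counted. Whether reads were shared within these sets was not tested, so the counts of these members are uncertain.

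The first comparison asked what H/R changed in exosomes of cells with the empty vector. Among the tested members, miR-466h-5p and miR-466l-3p had the largest positive differences and miR-466d-3p, miR-467c-5p and miR-466h-3p the largest negative ones, and none passed the test. In H/R against LV-NC, 0 of the 21 tested members were called by edgeR's quasi-likelihood test at a Benjamini-Hochberg adjusted p under 0.05, as for 0% of all 1682 tested. The smallest adjusted p among members was 0.645. An unadjusted p under 0.05 was found for 2 members, both higher (miR-466h-5p and miR-466l-3p), against 7.19% of all tested miRNAs (5.11% higher and 2.08% lower).

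The log2 fold change of miR-466h-5p was 1.85 (SE 0.76, adjusted p = 0.645 by edgeR), and it was 0.32 without library H/R 3. That of miR-466l-3p was 0.81 (SE 0.35, adjusted p = 0.645 by edgeR). The groups did not overlap for miR-466l-3p on the high side (7.31% of all tested), with either scaling. On the low side they did not overlap for miR-466h-3p, miR-466n-3p and miR-467c-5p (6.36%), but these 3 overlapped with total UMIs. miR-466h-3p had 12.9, 9.88 and 13.9 CPM in LV-NC and 7.09, 8.69 and 5.51 in the H/R group, a log2 fold change of -0.79 (SE 0.41), and -0.44 with total UMIs. miR-467c-5p had a log2 fold change of -0.83 (SE 0.45), -0.51 with total UMIs and -0.45 without library H/R 3. miR-466d-3p had the lowest value, -0.84 (SE 0.53), with 17.8, 15.8 and 4.89 CPM in LV-NC and 7.80, 7.96 and 5.51 in the H/R group. The groups overlapped, and the value was -0.50 with total UMIs, -0.54 without LV-NC 1 and -1.26 without LV-NC 3.

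Most of the tested members were on the low side of 0 after H/R. There were 6 of 21 with a positive and 15 with a negative log2 fold change, where 50.5% of all tested miRNAs were positive. Their median was -0.41 (-0.12 without LV-NC 1), beside 0.0075 over all tested miRNAs and 0.087 over those with a mean under 100 CPM. With no filter the median was -0.063 over all 70 members, so the lean depended on the filter. Scaled to total UMIs the medians were -0.070 for the members and 0.36 for all tested, and no member was called higher or lower, as for 0.0595% and 0% of all tested. The 15 include the 3p arms of miR-466a, miR-466b, miR-466c, miR-466e and miR-466p. These are the arms with similar counts described above, and they may not be separate values.

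The second comparison asked what BMAL1 changed under H/R. miR-467c-5p, miR-669c-5p and miR-669o-3p were among the higher members, and miR-466l-3p and miR-669h-5p among the lower. In BMAL1 against H/R, 0 of 21 members were called by edgeR, against 2.38% of all tested miRNAs, and the smallest adjusted p was 0.0983. An unadjusted p under 0.05 was found for 5 members, 3 higher and 2 lower, against 27.8% of all tested miRNAs (14.3% higher and 13.6% lower). DESeq2, run as an alternative, called 1 member, miR-669c-5p, with a log2 fold change of 1.31 (DESeq2 adjusted p = 0.0213), where it called 17.7% of the 1400 miRNAs to which it gave an adjusted p. DESeq2 gave no adjusted p to miR-467c-5p and miR-669h-5p and so could not call them. limma-voom called 0 members and 3.45% of all tested.

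The log2 fold change of miR-467c-5p was 1.21 (SE 0.41, adjusted p = 0.0983 by edgeR). miR-669c-5p had 1.22 (SE 0.44, adjusted p = 0.111 by edgeR), and 0.61 without library BMAL1 1, whose level was the highest of all libraries. The groups did not overlap for these 2 on the high side (14.7% of all tested) after scaling by TMM, and they overlapped with total UMIs, where the log2 fold changes of miR-467c-5p and miR-669c-5p were 0.43 and 0.48. There was no overlap on either scale for miR-466l-3p and miR-669h-5p on the low side (14.9%).

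miR-466l-3p had a log2 fold change of -0.97 (SE 0.33, adjusted p = 0.104 by edgeR). miR-669h-5p had 7.80, 7.96 and 18.7 CPM in the H/R group and 2.85, 6.78 and 6.63 in the BMAL1 group. It passed the low-count filter only with its H/R libraries, where it was high. Its log2 fold change was -1.12 (SE 0.47), and -0.55 without library H/R 3, the library that also stood out for miR-466h-5p. The lowest value of the tested members was that of miR-466h-5p, -1.32 (SE 0.72), and -2.05 with total UMIs, with overlapping groups on either scale. Its H/R libraries had 18.4, 18.1 and 121 CPM. miR-669o-3p had 0.86 (SE 0.39), with overlapping groups, and its value was 0.40 without library BMAL1 3 and -0.049 when the libraries were scaled to total UMIs. That scaling lowered the median of all tested miRNAs from -0.043 to -0.87.

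**Figure D5:**
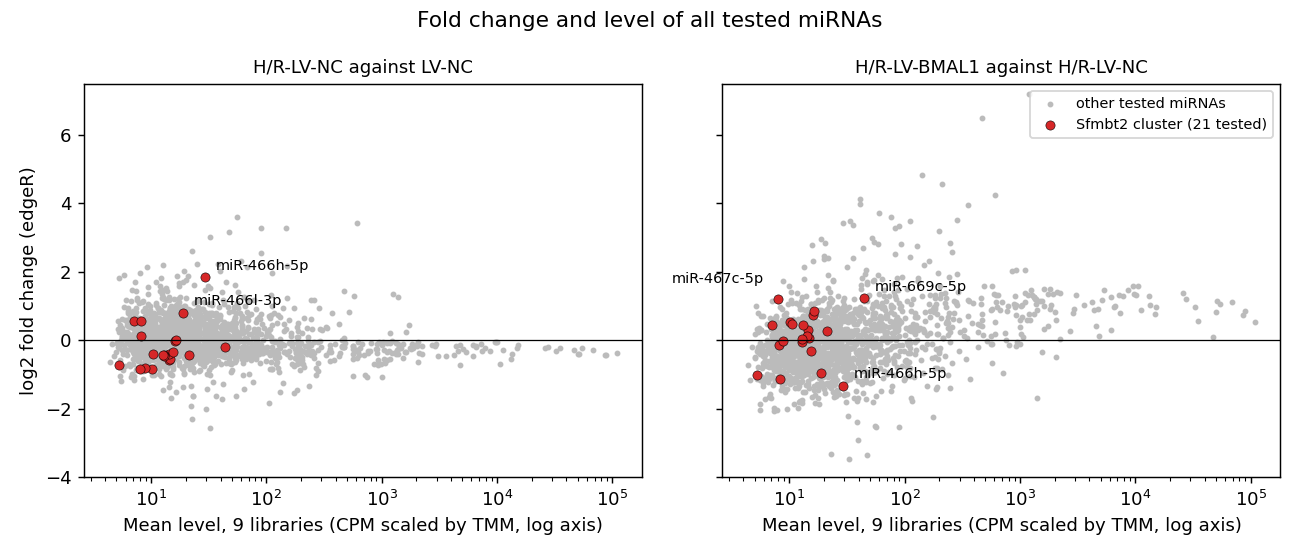
log2 fold change (edgeR) against mean level (CPM scaled by TMM, log axis) of the 1682 tested miRNAs, with the 21 tested members in red, for H/R against LV-NC (left) and BMAL1 against H/R (right). The members lie at 5.27 to 44.0 CPM, among the low miRNAs, from -0.84 to 1.85 on the left and from -1.32 to 1.22 on the right.

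The members as a list had no common direction with BMAL1. There were 13 with a positive and 8 with a negative log2 fold change, and 48.3% of all tested miRNAs were positive. Their median was 0.14, beside -0.043 over all tested and -0.14 over those with a mean under 100 CPM. The sign of this median changed with the scaling. With total UMIs it was -0.78, beside -0.87 over all tested, and it was -0.16 without library BMAL1 3.

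On the scale of total UMIs 4 members were called lower in this comparison, where 28.6% of all tested miRNAs were called lower. They were miR-466l-3p (log2 fold change -1.82), miR-669h-5p (-1.99), miR-466n-3p (-1.94) and miR-467e-5p (-1.19), with adjusted p from 0.0164 to 0.0339 in edgeR. None was called higher, against 2.26% of all tested.

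The third comparison, BMAL1 against LV-NC, shares its libraries with the other 2. edgeR called 0 of 21 members, against 0.238% of all tested, with a smallest adjusted p of 0.107. DESeq2 also called 0 members there, against 9.34% of the miRNAs to which it gave an adjusted p. It gave none to miR-466n-3p and so could not call that member. The smallest edgeR value, 0.107, belonged to miR-466n-3p. Its levels were 7.93, 8.89 and 8.15 CPM in LV-NC, 2.83, 6.52 and 5.51 in the H/R group and 1.27, 1.88 and 4.42 in the BMAL1 group. The BMAL1 libraries were below those of LV-NC with no overlap, at 4, 5 and 10 UMIs. As CPM of the total miR-466n-3p had 8.16, 9.21 and 8.71 in LV-NC and 1.19, 1.39 and 2.46 in the BMAL1 group. It passed the low-count filter only with LV-NC, the group where it was high, which limits what its fall can show. Its log2 fold change was -1.75 (SE 0.53), and -2.31 with total UMIs, where it was called lower (adjusted p = 0.0307 by edgeR), as were 4.58% of all tested, and no member was called higher (1.66%).

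The other members with the smallest p in that comparison were miR-669c-5p at 1.02 (SE 0.45), miR-669o-3p at 0.86 (SE 0.40), miR-466h-3p at -0.80 (SE 0.39) and miR-466g at 1.02 (SE 0.51) on the log2 scale. These values moved with single libraries. miR-669c-5p was at 0.39 without library BMAL1 1, miR-669o-3p at 0.39 without library BMAL1 3 and miR-466h-3p at -0.53 without library BMAL1 1. miR-466g was at 0.62 without LV-NC 1 and 1.81 without LV-NC 2. With total UMIs the 4 values were 0.64, 0.27, -1.35 and 0.48. Unadjusted p under 0.05 was found for 2 members, miR-466n-3p on the low side and miR-669c-5p on the high side, against 23.4% of all tested (13.3% higher and 10.1% lower). The groups did not overlap for miR-467c-5p on the high side (14.1% of all tested) and for miR-466h-3p and miR-466n-3p on the low side (11.5%). With total UMIs miR-467c-5p overlapped, at a log2 fold change of -0.077 instead of 0.39, and the other 2 did not. The list had 7 positive and 14 negative values and a median of -0.16, beside 0.023 over all tested, of which 51.3% were positive. The median of the members was -0.73 with total UMIs (-0.47 over all tested), -0.45 without library BMAL1 3, -0.41 without LV-NC 3 and 0.0039 without library BMAL1 1.

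The relatives at other positions gave a second view of the same families. Of the 10 listed, 4 were tested and none was called in any of the 3 comparisons, against 0%, 2.38% and 0.238% of all tested. With total UMIs 1 was called lower in BMAL1 against H/R, as were 28.6% of all tested. miR-466i-5p, from chromosome 13, was counted at 35, 50 and 44 UMIs in LV-NC, 86, 85 and 87 in the H/R group and 120, 149 and 146 in the BMAL1 group. Its total of 802 UMIs was close to the 826 of miR-669c-5p and above that of any other member. miR-467f, whose sequence is printed above, was counted at 7, 2 and 9 UMIs in LV-NC, 9, 9 and 6 in the H/R group and 309, 14 and 15 in the BMAL1 group. Library BMAL1 1 held 68.8% of its summed level and was also the library with the highest miR-669c-5p, while miR-466i-5p was not raised there.

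The Dlk1-Dio3 region of chromosome 12, the other large imprinted miRNA cluster of the mouse, had higher levels. Its 115 listed miRNAs had a median mean level of 15.2 CPM of the total, against 3.51 CPM for the 70 Sfmbt2 members. There 92 were tested, and 0, 0 and 1 were called in the 3 comparisons, the last lower in the BMAL1 group than in LV-NC, against 0%, 2.38% and 0.238% of all tested. With total UMIs 0, 29 and 9 were called lower, against 0%, 28.6% and 4.58% of all tested. Its median log2 fold changes were 0.031, -0.38 and -0.049, where the Sfmbt2 members had -0.41, 0.14 and -0.16, and 0.38, -1.21 and -0.53 with total UMIs, where the members had -0.070, -0.78 and -0.73. These differences between the lists were not tested.

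BMAL1 with its partner CLOCK binds E-boxes with the letters CACGTG. Both RefSeq windows of Sfmbt2, from 250 bases before to 50 bases after a gene start, were searched for these letters, which read the same on both strands. They occurred in 0 of the 2 windows and in 7.15% of 32851 windows of all genes. This says only that these letters are not in those windows.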

How the data were processed

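Exosomal small RNA of 9 libraries in 3 groups was measured. For 1978 mature miRNAs the authors deposited both UMI counts and CPM, and the deposited CPM equal each count scaled by its library total. Bowtie 1.3.0, cutadapt 2.7 and edgeR are named in the submitters' processing notes, without their roles. Groups came from the labels, and 0 columns were left unused. Libraries of a group differed beyond sampling noise (chi-square per degree of freedom 9.80 to 156). The highest values came from library BMAL1 1, at 105 with BMAL1 2 and 156 with BMAL1 3, while BMAL1 2 and 3 gave 27.6. That library, which stood out for miR-669c-5p and miR-467f, thus departed from its replicates over all miRNAs.

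Counts were analysed with edgeR 4.0.16 (limma 3.58.1, R 4.3.3): filterByExpr, which removed 296 miRNAs, TMM, and 1 quasi-likelihood fit of all 9 libraries, with Benjamini-Hochberg adjustment over the 1682 tested. The steps were tested on simulated data. Alternatives were RLE, upper-quartile and total-UMI scaling, no filter, a minimum mean of 50 UMIs, DESeq2 1.42.0, limma-voom, only the 2 groups compared, a replicate block and leaving out each library. Figures used Python 3.11.15 and matplotlib 3.10.9.

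Members and lists were chosen with earlier results of these data known. Named were called members, the 10 most abundant, the 5 with the smallest p in each comparison, their other arms and the 3 with most zeros. p-values measure the spread between libraries, which may be technical.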

Additional observations from a re-analysis of the deposited data

How the results depend on the processing

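No member was called by edgeR in any comparison under RLE or upper-quartile factors, without a filter, with a minimum mean of 50 UMIs, in fits of the 2 groups alone, or without any 1 library. In BMAL1 against H/R, edgeR called 0 of all miRNAs under RLE, upper quartiles, no filter and the 2 groups alone, and 0 without any 1 library except BMAL1 1 (139 without it), so the 0 for the members is not particular to them. Total UMIs called 4 members in BMAL1 against H/R and 1 against LV-NC (of 519 and 105 in all), and DESeq2 called 1 and 0 (17.7% and 9.34% of miRNAs with an adjusted p). DESeq2 gave no adjusted p to miR-467c-5p and miR-669h-5p in BMAL1 against H/R, or to miR-466n-3p in BMAL1 against LV-NC. In the order of the report, the medians of the members were -0.070, -0.78 and -0.73 with total UMIs, and 0.94, -0.37 and 0.57 with the minimum mean of 50 UMIs, where only 2 members were left. The first median was -0.063 with no filter, over 70 members. Without 1 library the medians ranged from -0.38 to -0.12, from -0.16 to 0.39 and from -0.45 to 0.0039, and calls stayed at 0. The summed level of the BMAL1 group was 435 CPM with TMM, 260 CPM without miR-669c-5p, and 301 to 335 CPM without 1 library. miR-669o-3p in BMAL1 against H/R was -0.049 with total UMIs. The cause of these shifts was not tested, except that fewer members entered the stricter filter. With a replicate block the medians were -0.40, 0.15 and -0.20 and 0 members were called. Libraries of the same number did not all deviate together (correlations from -0.16 to 0.13), so the numbers were not taken as pairs. With 21 of 70 members tested and a median of 3 to 8 UMIs per member, most members were too low to compare.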
